A study of Mus musculus with 6 samples.

Results

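Genes of respiratory complexes II to V were compared on 6 Agilent 2-colour arrays of mouse HACA cells. They were chosen by name, as every array probe whose gene name begins with Sdha to Sdhd, Uqcr, Cox4 to Cox8 followed by a letter or i, or Atp5, together with Cyc1. This gave 45 of the 19496 gene names on the array: 4 of complex II (succinate dehydrogenase), 8 of complex III (cytochrome bc1), 17 of complex IV (cytochrome c oxidase) and 16 of complex V (ATP synthase). The rule also asked for the brightest probe of each gene, but every one of the 45 had 1 probe, so brightness selected nothing. Names alone do not make a subunit: Cox4nb (Emc8 in RefSeq), Cox7a2l, a factor of supercomplex assembly, and Atp5s (Dmac2l in RefSeq) match the pattern without being structural subunits of these enzymes, which leaves 42 subunit genes.

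The cells carried a short hairpin RNA against Loxl2 (shLoxl2), against Snail (shSnail) or, as the control, against GFP (shGFP). The control RNA was in the other channel of every array, so all 3 groups carry a hairpin and each value is a log2 ratio of silenced over shGFP RNA. There were 4 shLoxl2 arrays, replicates 1 and 2 each with the silenced RNA once in Cy3 and once in Cy5, and 2 shSnail arrays, replicates 1 and 2, both labelled with Cy5 on the silenced side. Each silencing thus has n = 2. The labels name no age, clone number or separate cultures for these cells, so the p-values measure only the spread between these samples, which may be technical. shGFP served as a common reference, and a ratio tested against 0 leaves out the control's own spread. RNA came from whole cultures, in which a change in the share of cells expressing a gene and a change per cell cannot be told apart.

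The respiratory chain passes electrons from reduced carriers to oxygen in the inner mitochondrial membrane. Complex II feeds electrons from succinate to ubiquinone, complex III passes them on to cytochrome c, complex IV reduces oxygen, and complex V uses the resulting proton gradient to make ATP. Apart from a few subunits encoded by mitochondrial DNA, all of these proteins come from nuclear genes, whose promoters often hold sites for the factors NRF-1 and GABP (an ETS factor). Several complex IV subunits exist as a general isoform and an isoform restricted to muscle, testis or other tissues.

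The promoters of 34 of the 45 genes were in the RefSeq table (build GRCm38.p6). The 250 bases before the start were searched on both strands for the NRF-1 core (CGCANGCG), ETS (CCGGAAG), Sp1 (GGGCGG), YY1 (AAGATGGCG) and the ERR half-site (TCAAGGTCA). Shown here are Cox7a2, Atp5k and Uqcrh, 3 genes with large rises in shSnail, and Atp5b, the gene that fell, with the matched letters in capitals. They lie at chr9:79759854-79760103 (minus strand), chr5:108434400-108434649 (minus strand), chr4:116075071-116075320 (minus strand) and chr10:128083057-128083306 (plus strand).
Cox7a2: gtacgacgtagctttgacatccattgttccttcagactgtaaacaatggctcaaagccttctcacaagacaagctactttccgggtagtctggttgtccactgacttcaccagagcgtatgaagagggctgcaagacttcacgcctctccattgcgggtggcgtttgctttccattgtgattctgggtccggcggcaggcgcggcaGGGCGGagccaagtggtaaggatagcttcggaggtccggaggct
Atp5k: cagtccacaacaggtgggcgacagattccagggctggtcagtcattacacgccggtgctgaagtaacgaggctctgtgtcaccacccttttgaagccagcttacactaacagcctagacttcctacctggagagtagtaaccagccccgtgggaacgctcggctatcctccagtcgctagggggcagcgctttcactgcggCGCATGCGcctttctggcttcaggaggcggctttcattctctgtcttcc
Uqcrh: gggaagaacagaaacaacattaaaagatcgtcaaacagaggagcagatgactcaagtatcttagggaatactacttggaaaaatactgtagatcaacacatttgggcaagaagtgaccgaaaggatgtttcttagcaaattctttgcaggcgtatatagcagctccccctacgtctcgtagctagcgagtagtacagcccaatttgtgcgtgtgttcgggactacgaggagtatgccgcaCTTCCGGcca
Atp5b: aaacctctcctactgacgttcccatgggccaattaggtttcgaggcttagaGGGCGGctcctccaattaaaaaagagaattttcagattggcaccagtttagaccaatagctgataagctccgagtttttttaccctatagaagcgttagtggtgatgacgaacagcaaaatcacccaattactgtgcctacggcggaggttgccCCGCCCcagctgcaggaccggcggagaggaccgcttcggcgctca

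The capitals mark an Sp1 match from base -44 in Cox7a2, an NRF-1 match from -49 in Atp5k, an ETS match from -10 in Uqcrh, and Sp1 matches from -199 and -45 in Atp5b, counted back from the start. Among the 34 promoters an NRF-1 match stood in 7 (20.6%), against 6.94% of all 27025 promoters in the table. ETS matches stood in 8 (23.5%), against 7.05% of all. The share with an Sp1 match was 32.4%, against 32.9% of all. An ERR match was in 1 promoter (2.94%), against 0.366% of all, and a YY1 match in 0, against 0.607%. Of the 18 genes here that rose in shSnail, 3 held an NRF-1 match, 4 an ETS match and 3 an Sp1 match, and of the other 16 genes 4, 4 and 8 did. The first promoter listed for a gene was used. A match is only a run of letters, and no test was made of these shares.

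All 45 genes passed the filter on dim probes (19719 of 20868 probes passed, by standing well above background on 2 or more arrays in either colour). In both channels on all 6 arrays, 39 of the 45 were well above background, the others being the restricted isoforms Cox4i2, Cox6a2, Cox6b2, Cox7a1 and Cox8b and the non-subunit Atp5s. The Cy5 channel was saturated for Cox6a1 on 5 arrays, for Atp5g3 on 4, and for Cox5a and Atp5l on 2 each, which can compress their ratios. Of the shSnail arrays this touched 1, for Cox6a1 only. The arrays differed in the share of spots well above background, from 85.4% to 92.4% in Cy5 and from 55.9% to 74.9% in Cy3, and their number limits the precision. The Snai1 probe was well above background in the silenced channel of 0 of 6 arrays, and the Loxl2 probe did not fall in shLoxl2 (log2 fold change 0.11, SE 0.12, adjusted p = 0.59 by limma), with ratios of 1.38 and 1.04 in Cy3 and -1.30 and -0.68 in Cy5. Neither probe therefore checks the labels, and shLoxl2 and shSnail below mean the arrays labelled so. Of 8 keratinocyte and epithelial markers, 5 were well above background in both channels on all 6 arrays, against 2 of 5 leukocyte, 0 of 4 endothelial, 2 of 6 muscle and 1 of 3 neural markers. Of the 20868 probes, 9462 met this and had a value on every array.

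With the arrays labelled shSnail, genes of all 4 complexes were higher than in shGFP. By limma (Benjamini-Hochberg adjusted p under 0.05), 23 of the 45 rose, against 5.84% of all probes tested, and 1 fell, against 9.28% (15.1% in either direction). Among probes as bright as most of these genes (mean log2 signal of 12 or more), 13.8% rose and 20.2% fell. At an unadjusted p under 0.05, 28 were higher and 1, Atp5b, lower, against 2674 and 3434 of all 19719 probes. Of the 1478 brighter probes, 356 were higher and 462 lower. The median log2 fold change was 0.79 over the 45 and -0.04 over all 19719 probes. Both shSnail arrays were above 0 for 41 of the 45 genes. The count rests on both shSnail arrays: with either one left out, 0 of the 45 passed and only 2 or 4 of all probes did. From log ratios as the scanner software gives them 11 rose, and 19 once each array was centred on its median. The genes were chosen with earlier results of these arrays known, so these counts describe the group and are no independent evidence of its direction.

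**Figure D1:**
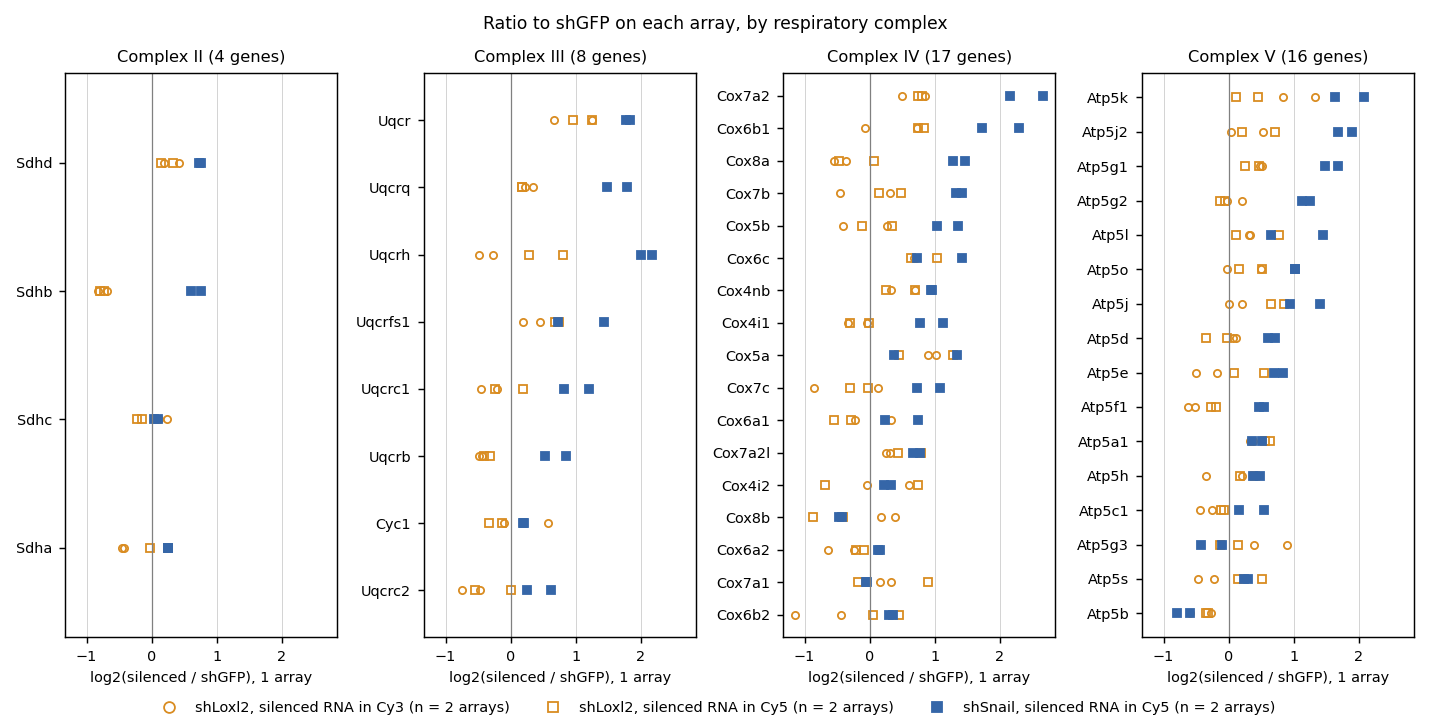
Log2 ratio of silenced over shGFP RNA on each of the 6 arrays (horizontal axis) for the 45 genes, in 1 panel per complex, sorted by the shSnail fold change. Open orange marks are the 4 shLoxl2 arrays (circles: silenced RNA in Cy3, squares: in Cy5) and filled blue squares the 2 shSnail arrays, which lie above all 4 shLoxl2 arrays for 27 of the 45 genes. The same held for 14% of all probes and 27.7% of probes with a mean log2 signal of 12 or more.

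Complex II, the enzyme shared with the citric acid cycle, had 2 of 4 genes higher in shSnail. Sdhd, a membrane anchor subunit, was at 0.72 and 0.76 on the shSnail arrays, and rose by 0.77 (SE 0.16, adjusted p = 0.0246). Sdhb, the iron-sulfur subunit that passes electrons to ubiquinone, was at 0.61 and 0.76 on the shSnail arrays, at -0.69 and -0.83 on the shLoxl2 arrays in Cy3 and at -0.79 and -0.73 in Cy5. All arrays of one silencing were thus above the control and all arrays of the other below it. Sdhb rose by 0.69 in shSnail (SE 0.15, 1.61-fold, adjusted p = 0.0293). Sdhc, the other anchor (0.24, SE 0.14, adjusted p = 0.312), and Sdha, the flavoprotein that oxidises succinate (-0.03, SE 0.16, adjusted p = 0.937), did not pass.

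In complex III, 6 of 8 genes rose and 0 fell, and the 4 small subunits had a median of 1.66. Uqcr (Uqcr11 in RefSeq), a small subunit, was at 1.77 and 1.83 on the shSnail arrays, at 1.26 and 0.67 on the shLoxl2 arrays in Cy3 and at 1.25 and 0.96 in Cy5. It was therefore above the control on every array and highest on both shSnail arrays. It rose by 1.73 in shSnail (SE 0.21, 3.32-fold, adjusted p = 0.00627). Uqcrh, the acidic hinge protein that helps cytochrome c bind, was at 2.18 and 2.01 on the shSnail arrays, at -0.28 and -0.49 in shLoxl2 Cy3 and at 0.80 and 0.28 in shLoxl2 Cy5. Both shSnail arrays stood well above the 4 others, which themselves split by dye. Its rise was 1.63 (SE 0.20, 3.10-fold, adjusted p = 0.00628) after the dye effect was removed.

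Uqcrq, a small subunit next to cytochrome b, read 1.48 and 1.79 in shSnail and between 0.18 and 0.35 in shLoxl2, without overlap, and rose by 1.68 (SE 0.16, 3.21-fold, adjusted p = 0.00357). Uqcrb, which supports the ubiquinone site, rose by 0.64 (SE 0.16, adjusted p = 0.0449). Among the larger subunits, the core protein Uqcrc1 (0.86, SE 0.21, adjusted p = 0.0389) and the Rieske iron-sulfur protein Uqcrfs1 (0.88, SE 0.23, adjusted p = 0.0488) also rose. The 2 members that did not pass were the second core protein Uqcrc2 (0.26, SE 0.22, adjusted p = 0.48) and cytochrome c1, Cyc1 (0.43, SE 0.22, adjusted p = 0.246). Uqcr10, another small subunit, is on this array under the clone name 1110020P15Rik and so falls outside the naming rule. It was at 1.78 and 1.95 on the shSnail arrays and between -0.89 and -0.33 on the shLoxl2 arrays, a rise of 1.78 in shSnail (SE 0.20, adjusted p = 0.00518).

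In complex IV, 8 of 17 genes rose and 0 fell. The 10 general nuclear subunits held 7 of the 8, with a median of 1.06. Cox7a2, a small subunit whose general isoform this is, was at 2.15 and 2.66 on the shSnail arrays, at 0.86 and 0.49 in shLoxl2 Cy3 and at 0.81 and 0.74 in shLoxl2 Cy5 (probe in mm8 chr9:79541104-79541163). All 6 arrays were above the control, with both shSnail arrays far above the rest. The rise of 2.36 (SE 0.21, 5.12-fold, adjusted p = 0.00348) was the highest of the 45. Cox6b1, which faces the intermembrane space, was at 1.72 and 2.30 in shSnail, at 0.73 and -0.06 in shLoxl2 Cy3 and at 0.75 and 0.83 in shLoxl2 Cy5. The groups did not overlap, and 1 shLoxl2 array lay apart from the other 3. Cox6b1 rose by 1.78 (SE 0.28, 3.44-fold, adjusted p = 0.0113).

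Cox8a, a small membrane-spanning subunit, was at 1.47 and 1.28 on the shSnail arrays and between -0.55 and 0.07 on the shLoxl2 arrays, and rose by 1.25 (SE 0.20, 2.37-fold, adjusted p = 0.012). Cox7b (1.18), Cox5b (1.11), Cox6c (1.01) and Cox4i1 (0.94) rose with adjusted p from 0.0256 to 0.0383. Cox4i1 and Cox5b are regulatory subunits that bind nucleotides or zinc, and Cox6c and Cox7b are small membrane-spanning ones. The remaining general subunits had positive values that did not pass. These were Cox5a (0.90, SE 0.34, adjusted p = 0.13), Cox7c (0.80, SE 0.30, adjusted p = 0.126) and Cox6a1 (0.72, SE 0.24, adjusted p = 0.097). Cox6a1 was saturated on 1 shSnail array, and Cox5a only on shLoxl2 arrays. Of the non-subunits, Cox4nb rose (0.97, SE 0.20, adjusted p = 0.0244) and Cox7a2l did not pass (0.55, SE 0.17, adjusted p = 0.0765).

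Isoforms of 1 subunit were set side by side. In each pair with a restricted form, the general form had the higher log2 fold change in shSnail: Cox7a2 at 2.36 and the heart and muscle form Cox7a1 at -0.11 (SE 0.30), Cox6b1 at 1.78 and the testis form Cox6b2 at -0.19 (SE 0.24), and Cox8a at 1.25 and the muscle form Cox8b at 0.01 (SE 0.19). Cox6a1 stood at 0.72 and the muscle form Cox6a2 at -0.00 (SE 0.17), and Cox4i1 at 0.94 and the lung form Cox4i2 at 0.40 (SE 0.41). None of the 5 restricted forms passed in any of the 3 comparisons. Their Cy3 signal was well above background on 0 to 5 of the 6 arrays, so their ratios rest on dim spots, and the difference within a pair was not tested.

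Complex V had 7 of 16 genes higher and 1 lower in shSnail, and the medians of its groups of subunits differed. The 3 accessory subunits of the membrane part had a median of 1.70. Atp5k, the e subunit at the dimer interface, was at 1.63 and 2.08 on the shSnail arrays, at 1.32 and 0.84 in shLoxl2 Cy3 and at 0.11 and 0.46 in shLoxl2 Cy5 (probe in mm8 chr5:108674089-108674344). The shSnail arrays were highest, and the shLoxl2 arrays again split by dye. With the dye effect removed its rise was 2.25 (SE 0.23, 4.77-fold, adjusted p = 0.00397), and without that step its mean was 1.85. Atp5j2, the f subunit, was at 1.89 and 1.68 against values between 0.03 and 0.71 in shLoxl2, and rose by 1.70 (SE 0.23, 3.25-fold, adjusted p = 0.00791). The third, the g subunit Atp5l, did not pass (0.99, SE 0.29, adjusted p = 0.0685).

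The c ring, which turns with the proton flow, is encoded by 3 genes for 1 mature protein. Atp5g1 was at 1.48 and 1.68 on the shSnail arrays and between 0.26 and 0.52 on the shLoxl2 arrays, and rose by 1.65 (SE 0.16, 3.14-fold, adjusted p = 0.00357). Atp5g2 was at 1.12 and 1.25, with shLoxl2 between -0.13 and 0.21, and rose by 1.27 (SE 0.16, adjusted p = 0.00627). Neither gene's groups overlapped. Atp5g3, by contrast, read -0.42 and -0.10 in shSnail and 0.06 in the fit (SE 0.21, adjusted p = 0.895). Its Cy5 spots were saturated on the 4 shLoxl2 arrays and on 0 shSnail arrays.

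The F1 head, where ATP is made, had 1 gene higher and 1 lower of 5, with a median of 0.31. Its catalytic beta subunit Atp5b was at -0.59 and -0.80 on the shSnail arrays, at -0.59 and -0.27 in shLoxl2 Cy3 and at -0.35 and -0.31 in shLoxl2 Cy5 (probe in mm8 chr10:127488462-127488521). It was below the control on all 6 arrays, and lowest on both shSnail arrays, the higher of which lay next to the lowest shLoxl2 array. It fell by 0.74 in shSnail (SE 0.17, adjusted p = 0.0327). The delta subunit Atp5d rose by 0.79 (SE 0.16, adjusted p = 0.0255). The alpha subunit Atp5a1 (0.31, SE 0.15, adjusted p = 0.211), the gamma subunit Atp5c1, the rotor shaft (0.22, SE 0.18, adjusted p = 0.458), and the epsilon subunit Atp5e (0.44, SE 0.20, adjusted p = 0.19) did not pass. Of the 4 peripheral stalk genes, which hold the head still, Atp5o (0.97) and Atp5j (0.85) rose, and Atp5f1 (0.33) and Atp5h (0.25) did not pass. The non-subunit Atp5s stood at -0.07 (SE 0.18).

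**Figure D2:**
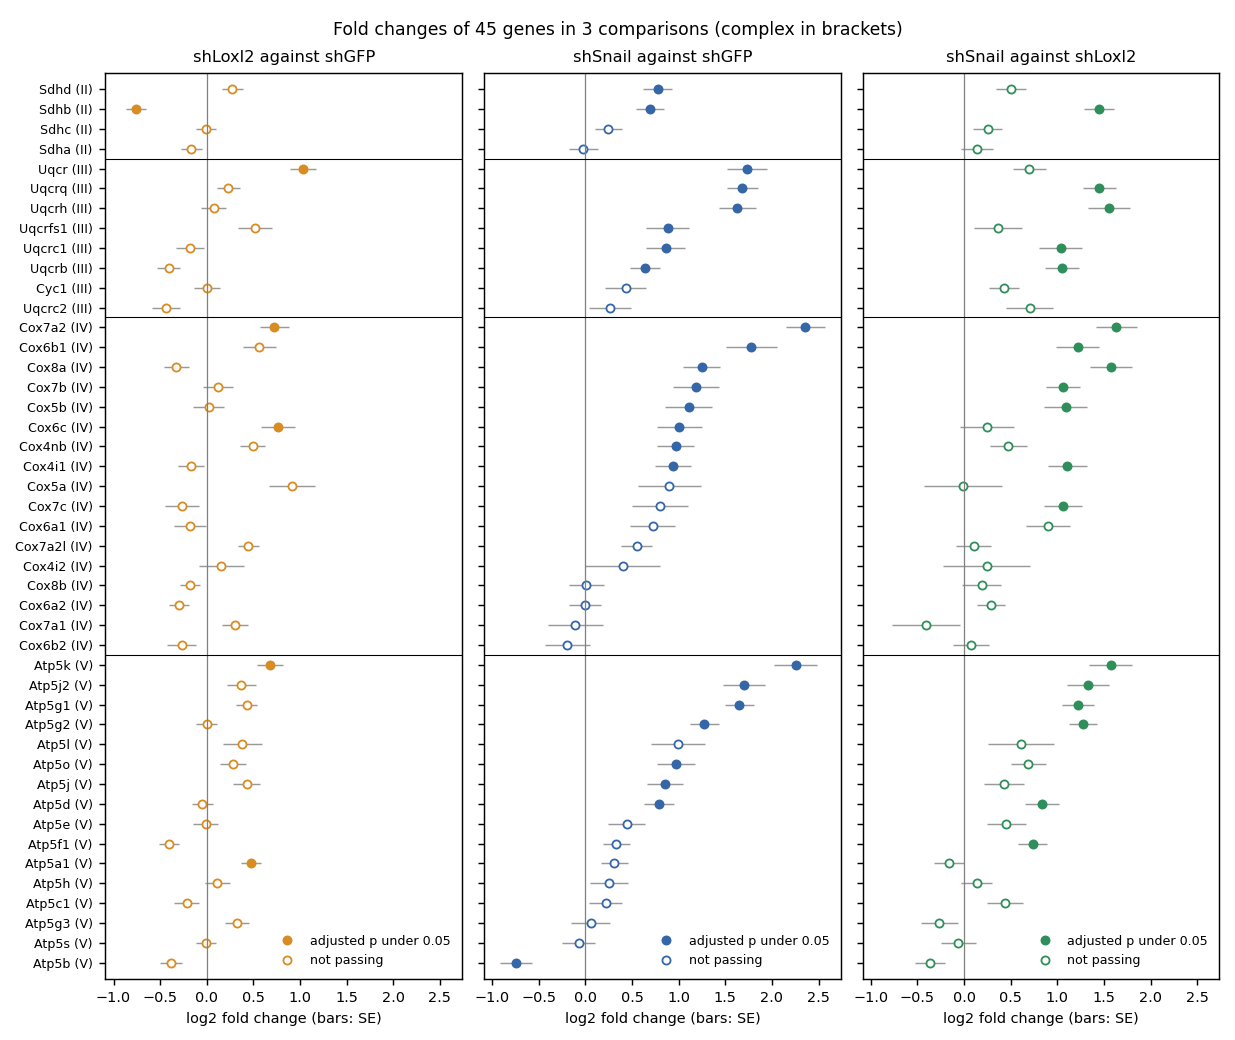
Log2 fold change (horizontal axis, bars: SE) of the 45 genes in shLoxl2 against shGFP, shSnail against shGFP and shSnail against shLoxl2, grouped by complex. Filled points passed limma's adjusted p of 0.05: 5 rose and 1 fell in the first panel, 23 rose and 1 fell in the second, and 18 were higher and 0 lower in the third.

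With the arrays labelled shLoxl2, few of these genes passed. By limma, 5 of 45 rose, against 8.01% of all probes, and 1 fell, against 5.83%, so the share of 11.1% that rose is near the background (13.8% in either direction). Of the brighter probes 15.6% rose and 15.9% fell. At an unadjusted p under 0.05, 13 were higher and 7 lower, against 3120 and 2393 of all 19719 probes. Of the 1478 brighter probes, 409 were higher and 393 lower. Their median was 0.08, against -0.01 over all probes. Uqcr rose by 1.03 (SE 0.14, 2.04-fold, adjusted p = 0.00864), with the 4 array values given above all positive. Cox6c (0.76, SE 0.18, adjusted p = 0.0462), Cox7a2 (0.73, SE 0.16, adjusted p = 0.0335), Atp5k (0.68, SE 0.14, adjusted p = 0.0296) and Atp5a1 (0.47, SE 0.11, adjusted p = 0.0424) rose less. The Atp5a1 arrays read 0.32 and 0.37 in Cy3 and 0.64 and 0.56 in Cy5. Sdhb fell by 0.76 (SE 0.11, adjusted p = 0.0105), with its 4 arrays between -0.83 and -0.69.

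The rest of the complexes showed values on both sides of 0 in shLoxl2. In complex II, Sdhd read 0.27, Sdhc -0.01 and Sdha -0.16. In complex III, the Rieske protein Uqcrfs1 had 0.52 (SE 0.18, adjusted p = 0.124), and Uqcrc2 (-0.44, SE 0.16), Uqcrb (-0.41, SE 0.12) and Uqcrc1 (-0.18, SE 0.15) had negative values that did not pass. Cyc1 stood at 0.00 and Uqcrh at 0.08. In complex IV, Cox5a had the highest value, 0.91 (SE 0.25, adjusted p = 0.0668), on saturated spots, and Cox8a (-0.33), Cox6a2 (-0.30) and Cox6b2 (-0.27) the lowest. In complex V, Atp5g1 and Atp5j had 0.43 each, and the peripheral stalk gene Atp5f1 (-0.40, SE 0.11, adjusted p = 0.0611), Atp5b (-0.38, SE 0.12, adjusted p = 0.0982) and Atp5c1 (-0.22, SE 0.13) the lowest.

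The call count in shLoxl2 depended on each replicate, a pair of arrays, and on the block. Without replicate 1, 1 of the 45 rose, and without replicate 2, 3 did. From the scanner software's log ratios 0 of the 45 passed. With the replicate number as a block, 9 rose and 3 fell, while the replicate numbers are not known to pair the samples. Since both comparisons use the same shGFP RNA, they are set side by side only. Uqcr, Cox6c, Cox7a2 and Atp5k, 4 genes in all, rose in both, Sdhb moved in opposite directions, and Atp5a1 passed in shLoxl2 but not in shSnail, with the difference between silencings not past the threshold (-0.16, SE 0.16, adjusted p = 0.522).

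**Figure D3:**
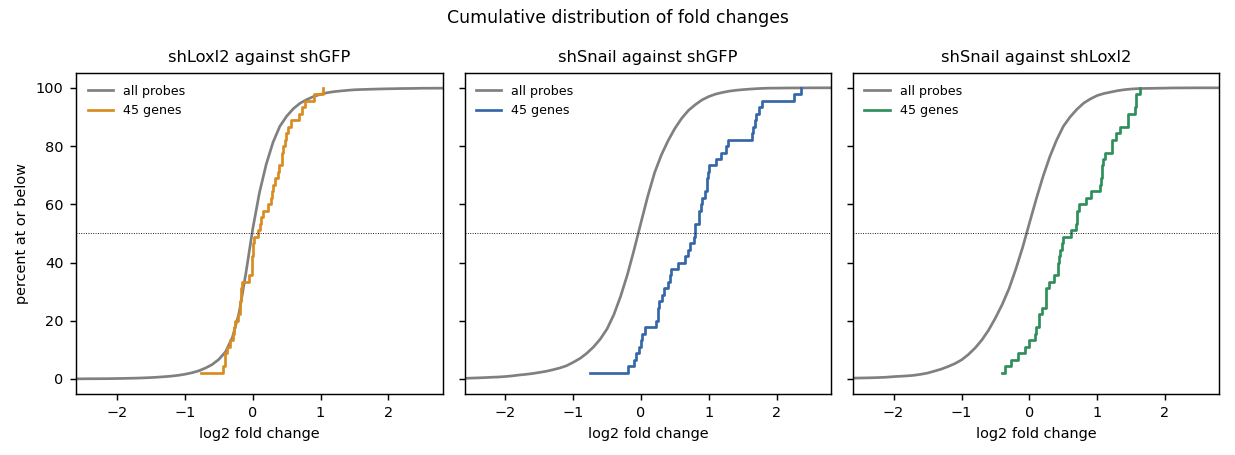
Percent of the 45 genes (coloured steps) and of all 19719 probes (grey line) with a log2 fold change at or below the value on the horizontal axis, in each comparison. At the 50% line the genes stand at 0.08 in shLoxl2, 0.79 in shSnail and 0.61 in shSnail against shLoxl2, and all probes at -0.01, -0.04 and -0.04.

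The silencings were also compared directly, on the 4 arrays that carry silenced RNA in Cy5. A dye effect cancels there only if it is equal in both groups. The shSnail arrays followed it with a slope of 0.453 over all probes, so part of it may remain in the differences. The shSnail arrays were scanned on another day than the shLoxl2 arrays, so scan day and silencing cannot be told apart here. By limma, 18 of 45 genes were higher in shSnail, against 4.22% of all probes, and 0 were lower, against 8.53% (12.8% in either direction), with a median of 0.61. Of probes with a mean log2 signal of 12 or more, 10.7% were higher and 17.5% lower. At an unadjusted p under 0.05, 24 were higher and 0 lower, against 2526 and 3884 of all 19719 probes. With log ratios as the scanner software gives them, 7 of the 45 were higher and 2 lower. With both shSnail arrays above all 4 shLoxl2 arrays there were 27 genes (60%), against 14% of all probes and 27.7% of those brighter probes. By complex, 1 of 4 genes of complex II, 4 of 8 of complex III, 7 of 17 of complex IV and 6 of 16 of complex V were higher. With either shSnail array left out, 0 passed.

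The widest differences were Cox7a2 (1.63, SE 0.22, 3.10-fold, adjusted p = 0.0189), Cox8a (1.58, SE 0.23, adjusted p = 0.0213), Atp5k (1.57, SE 0.23, adjusted p = 0.0215), Uqcrh (1.55, SE 0.23, adjusted p = 0.0213), Uqcrq (1.45, SE 0.18, adjusted p = 0.0177) and Sdhb (1.45, SE 0.16, adjusted p = 0.017). Atp5j2 (1.33), Atp5g2 (1.28), Atp5g1 (1.22) and Cox6b1 (1.22) followed. Uqcrh and Atp5k had dye effects of 0.46 and -0.40, part of which may remain in their differences. The differences of Uqcrb (1.05) and Cox7b (1.06) were near 1. Of the 23 genes that rose in shSnail, 16 were also higher than in shLoxl2 by this test. The other 7 included Uqcr (0.70, SE 0.18, adjusted p = 0.0607), Uqcrfs1 (0.36, SE 0.26), Cox6c (0.24, SE 0.29) and Sdhd (0.50, SE 0.16). Cox7c (1.07, SE 0.20, adjusted p = 0.0347) and Atp5f1 (0.74, SE 0.15, adjusted p = 0.0409) passed here without passing against shGFP. Cox7a1 (-0.41, SE 0.36), Atp5b (-0.37, SE 0.16) and Atp5g3 (-0.27, SE 0.20) had the lowest values, none past the threshold.

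The dye effect of these genes was set beside that of the whole array. Over all probes, the arrays of 1 shLoxl2 number in opposite dyes, turned to the same direction, correlated at 0.0226 and -0.0319. Arrays of 1 silencing in the same dye correlated at 0.753 (shLoxl2, Cy5), 0.719 (shLoxl2, Cy3) and 0.876 (shSnail, Cy5), and the averaged shLoxl2 pairs at 0.676, across probes that share the array design. The dye effect, the log2 ratio of Cy5 over Cy3 common to both orientations, had an SD of 0.46 over all probes and passed the threshold for 5567 of them. Among the 45 it had a median of 0.07 and passed for 3: Uqcrh (0.46), Cox6b2 (0.52) and Cox8b (-0.46). The shSnail arrays followed it with a slope of 0.453 over all probes, so removing it in full can overcorrect. With the effect scaled by that slope 25 genes rose and 1 fell, against 1046 and 2002 of all 19719 probes. With no dye correction 30 rose and 2 fell, the second being Cox8b, against 2572 and 3623 of all probes.

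**Figure D4:**
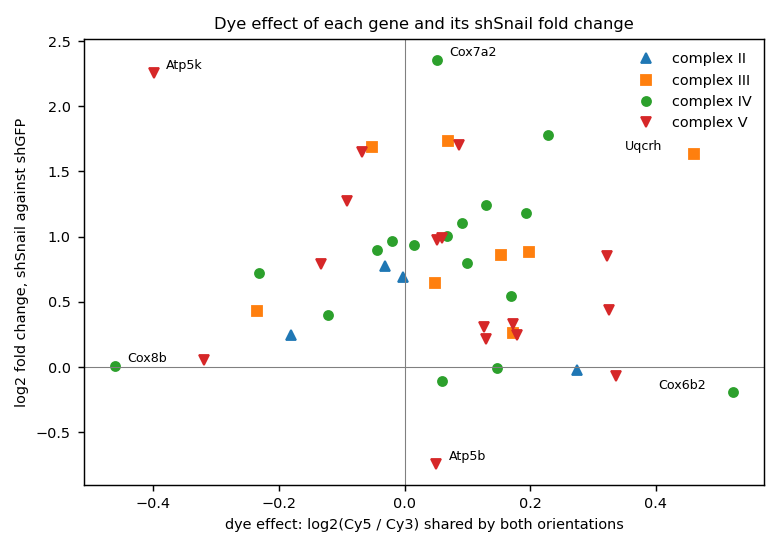
Dye effect of each of the 45 genes (horizontal axis, log2 of Cy5 over Cy3) against its log2 fold change in shSnail against shGFP (vertical axis), marked by complex. Cox7a2 (0.05) and Atp5b (0.05) had small dye effects, and Atp5k (-0.40), Uqcrh (0.46), Cox8b (-0.46) and Cox6b2 (0.52) the larger ones.

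Other genes of the pathway were taken from lists. Over all probes 5.84% rose and 9.28% fell in shSnail, and 8.01% rose and 5.83% fell in shLoxl2. At an unadjusted p under 0.05 by limma, 2674 of the 19719 probes were higher and 3434 lower in shSnail. Some list counts were near these shares, such as the complex I genes higher in shLoxl2 (7.5%). Complex I, the other entry point for electrons, was taken as all genes named Nduf. It had 22 of 40 genes higher and 0 lower in shSnail (27 and 0 at an unadjusted p under 0.05, limma), with a median of 0.83. In shLoxl2 3 were higher and 6 lower. The 40 include the assembly factors Ndufaf1, Ndufaf3, Ndufaf4 and Ndufaf5, which are not subunits. They also include Ndufa4, a complex IV subunit, which is among the 22 that rose. Ndufc2 (1.54, SE 0.15, adjusted p = 0.00363) and Ndufb2 (1.60, SE 0.17, adjusted p = 0.00398), both accessory subunits, rose in shSnail, and Ndufs4 (-0.71, SE 0.11, adjusted p = 0.0119) and Ndufa10 (-1.01, SE 0.15, adjusted p = 0.0121) fell in shLoxl2. Assembly factors of complexes II to V had 10 of 30 higher and 0 lower in shSnail (13 and 0 unadjusted), with a median of 0.37. Among them Cox10, of heme a synthesis (1.11, SE 0.16, adjusted p = 0.00936), and Cox19 (1.39, SE 0.22, adjusted p = 0.0114) rose. In shLoxl2 7 assembly factors rose and 1 fell, and those that rose included Coa7 (1.63, SE 0.11, adjusted p = 0.00146) and Coa3 (1.03, SE 0.12, adjusted p = 0.00639).

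Electron carriers and exchange proteins had 5 of 20 higher and 0 lower in shSnail (10 and 1 unadjusted), among them Etfb, of fatty acid electron transfer (1.61, SE 0.24, adjusted p = 0.00975). Coq3, of ubiquinone synthesis, also passed (1.35, SE 0.16, adjusted p = 0.00562), but both shSnail arrays read below the control (-1.62 and -1.53), its dye effect was -2.93, and its value was -0.25 with that effect scaled and -1.58 with no dye correction, so its direction turns with the dye correction. With no dye correction 7 of the 20 were higher and 3 lower, against 2572 and 3623 of all 19719 probes. Cytochrome c, Cycs, fell in shLoxl2 (-0.82, SE 0.11, adjusted p = 0.00838), as did Coq6 (-0.70, SE 0.13, adjusted p = 0.0199). The regulators of these genes had 0 of 18 higher and 2 lower (11.1%) in shSnail (1 and 3 unadjusted). That share is near the 9.28% of all probes that fell. The 2 were Gabpb1, a subunit of GABP (-1.82, SE 0.14, adjusted p = 0.00348), and Nfe2l2 (-1.46, SE 0.15, adjusted p = 0.00398). With the dye effect scaled 0 of the 18 regulators were higher and 3 lower, against 1046 and 2002 of all 19719 probes. With no dye correction 1 was higher and 4 lower, beside the counts of all probes given above. Gabpa, another subunit of GABP, passed as lower in both of these settings (-0.80 and -1.11). Gabpb1 also fell in shLoxl2 (-1.69, SE 0.11, adjusted p = 0.00145). The citric acid cycle had 2 of 14 higher and 1 lower (7.14%) in shSnail, with a median of 0.01, and 1 higher (7.14%) and 4 lower in shLoxl2. Over all probes 5.84% were higher and 9.28% lower in shSnail, and 8.01% and 5.83% in shLoxl2. Suclg1 (0.82, SE 0.18, adjusted p = 0.032) rose in shSnail. Mdh2 passed there (0.76, SE 0.19, adjusted p = 0.0459) with a dye effect of -0.51, and did not with that effect scaled (0.48, adjusted p = 0.111) or not corrected (0.25, adjusted p = 0.17). With no dye correction 4 genes of the cycle were higher and 4 lower in shSnail. In shLoxl2 Idh2 rose (0.80, SE 0.15, adjusted p = 0.0217) and Idh3a fell (-0.48, SE 0.11, adjusted p = 0.0368).

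In shSnail against shLoxl2, 4.22% of all probes were higher and 8.53% lower. At an unadjusted p under 0.05 by limma, 2526 of the 19719 were higher and 3884 lower. Of complex I, 21 of 40 genes were higher and 0 lower (29 and 0 at an unadjusted p under 0.05, limma). Among them were Ndufb2 (1.77, SE 0.18, adjusted p = 0.0164) and Ndufa9 (2.29, SE 0.25, adjusted p = 0.017). Of the assembly factors, 4 were higher and 1 lower, those higher with the smallest p being the copper chaperone Cox17 (1.45, SE 0.18, adjusted p = 0.0178) and Cox16 (1.51, SE 0.19, adjusted p = 0.0178). Of the carriers, 6 of 20 were higher and 0 lower (7 and 0 unadjusted), among them Coq3 (1.59, SE 0.15) and Cycs (1.26, SE 0.16). Coq3 has the large dye effect given above, so its difference may hold part of that effect. Of the regulators, Nfe2l2 was lower (-1.11, SE 0.16, adjusted p = 0.0201) and 0 were higher (0 unadjusted). In the citric acid cycle, 3 of 14 were higher and 0 lower (6 and 0 unadjusted): Suclg1 (1.38, SE 0.20), Idh3g (1.09, SE 0.23) and Fh1 (0.89, SE 0.16).

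**Figure D5:**
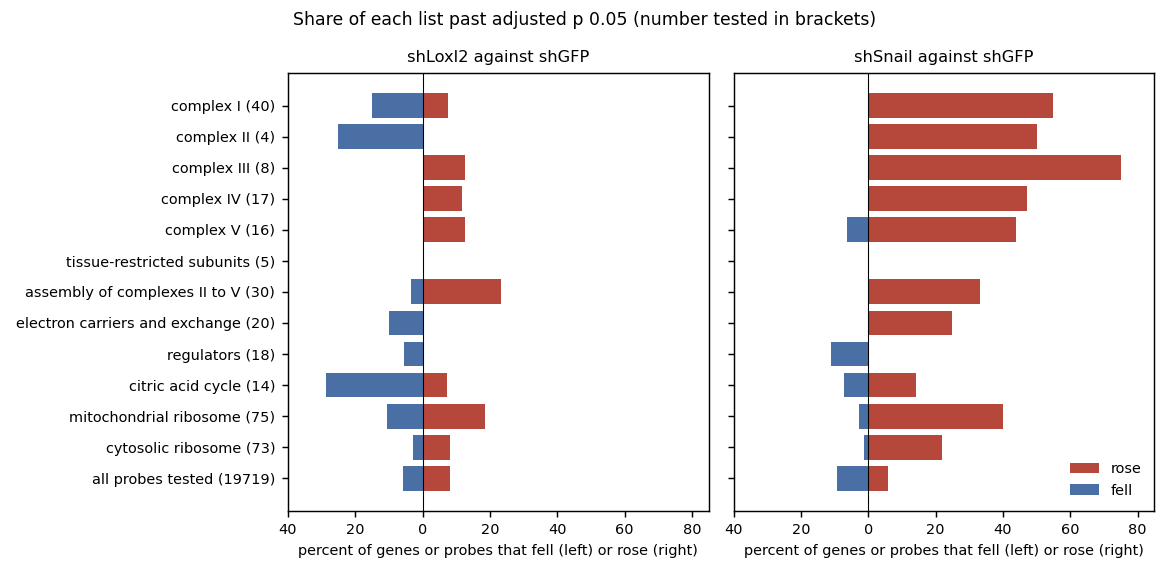
Percent of each list's tested genes that rose (right, red) or fell (left, blue) past limma's adjusted p of 0.05 in shLoxl2 and in shSnail against shGFP, with the number tested in brackets and, in shSnail, the dye effect removed in full. In shSnail 55% of complex I, 75% of complex III and 40% of the mitochondrial ribosome rose, against 5.84% of all probes.

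The ribosomal lists were added after the data were seen. Mitochondrial ribosomal proteins had 30 of 75 higher and 2 lower in shSnail, with a median of 0.65, and 14 higher and 8 lower in shLoxl2. Cytosolic ribosomal proteins had 16 of 73 higher and 1 lower in shSnail, with a median of 0.47, while their median dye effect was -0.35 and 35 of them passed for dye. Before dye correction their medians on the shSnail arrays were 0.04 and 0.04, and 16 passed as higher and 16 as lower with no dye correction, against 11 and 1 with the effect scaled. The mitochondrial ribosome had 43 higher and 6 lower with no dye correction and complex I 30 and 0. Of all 19719 probes, 2572 were higher and 3623 lower with no dye correction, and 1046 and 2002 with the effect scaled. The probes for the mitochondrially encoded CYTB (-0.48, SE 0.22) and COX2 (0.85, SE 0.45) did not pass in shSnail. Among markers of cell state, Trp63 (-1.71, adjusted p = 0.00357) and Itgb4 (-1.78, adjusted p = 0.00348) fell and Krt8 rose (1.12, adjusted p = 0.00788) in shSnail. These were 3 of 8 keratinocyte and epithelial markers, against 15.1% of all probes in either direction. In shLoxl2 4 of the 8 passed, against 13.8% of all probes. Trp63 (-1.15, adjusted p = 0.00447) and Itgb4 (-1.88, adjusted p = 0.00104) were lower and Cdh1 (1.08, adjusted p = 0.00494) and Epcam (1.51, adjusted p = 0.00171) higher. Krt8, Cdh1 and Epcam were dim, with the control channel well above background on 2, 1 and 2 of the 6 arrays. Their silenced channel was so on 4, 5 and 6. The part of these markers in the results was not tested. None of the tested leukocyte, endothelial, muscle or neural markers passed in either comparison with shGFP.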

How the data were processed

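The authors deposited Agilent Feature Extraction scanner files with the intensity of each spot in both channels and log10 ratios of Cy5 over Cy3; the submitters' processing notes give software version 6.1.1 and the headers 9.5.1.1. The authors' table of values repeats these log10 ratios, rounded, in the spot order of the scanner files. Every column but that of shSnail replicate 2 equalled its array to 0.006 at 100% of spots. That column did so at 9.37% and repeats shSnail replicate 1, so this source was only an alternative, with a single shSnail array. Its column medians ran from 0.0371 to 0.098. Directions come from the dyes in the labels.

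Spot intensities were background-corrected by normexp (offset 50) and loess-normalised in limma 3.58.1 (R 4.3.3, data.table version 1.17.8), giving no weight to outliers and to the 736 control spots. Averaging 21318 spots gave 20868 probes. Probe coordinates are the files' own, in mm8, and 44 of the 45 members matched RefSeq by accession.

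The 2 arrays of a shLoxl2 number were taken as a dye swap of 1 sample and averaged, and tested with the shSnail arrays sharing the spread. shSnail was fitted over 6 arrays with a dye term, and shSnail against shLoxl2 over the 4 Cy5 arrays. The fit over 6 arrays counts the arrays of a dye-swapped pair singly, so its spread is partly technical. Its dye effect comes from the shLoxl2 arrays, which were scanned on another day than the shSnail arrays. The test was limma (lmFit, then eBayes), adjusted by Benjamini-Hochberg to 0.05 over all 19719 probes tested. The code was tested on simulated data with 200 probes changed 2-fold. Of these, 87% passed in shLoxl2 against shGFP, 9.15% in shSnail against shGFP and 0.05% in shSnail against shLoxl2. The false share of the calls, averaged over 10 simulations and set to 0 where a simulation had no calls, was 1.47%, 3.53% and 10%. In shSnail against shLoxl2, where almost no changed probe passed, this mean is not the share of all calls that were false. Far fewer probes changed there than passed on the arrays, so the shares may not carry over. A gene that did not pass may still have changed. Each array is its own slide, so no slide block could be fitted. Alternatives covered background, normalisation, filters, dye, single arrays and the replicate block.

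The members and lists were chosen with earlier results of these data known. Named with values were, per comparison and complex, the 3 members highest and lowest in log2 fold change, all of complex II, core subunits, members named in earlier results, isoform pairs, and up to 2 genes of each other list by smallest p. Other genes named were chosen after their values were seen.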

Additional observations from a re-analysis of the deposited data

Results flagged for a closer look

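On the 4 shLoxl2 arrays, 1 value of Cox6b1 stood apart by Dixon's test: -0.0643 on the Cy3 array of replicate 2, against 0.73 to 0.83 on the other 3. Chance flags about 1 in 20 such groups, and 45 genes were looked at.

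The effect of silencing differed between shSnail and shLoxl2 by limma's test of the difference for 18 genes, all higher in shSnail and none lower, on the 4 arrays carrying silenced RNA in Cy5 (2 against 2). The scan day cannot be told apart from the silencing in these differences, and part of the dye effect may remain in them. In complex II the difference was 1.45 for Sdhb. In complex III it was 1.55 for Uqcrh, 1.45 for Uqcrq, 1.05 for Uqcrb and 1.04 for Uqcrc1. In complex IV it was 1.63 for Cox7a2, 1.58 for Cox8a, 1.22 for Cox6b1, 1.11 for Cox4i1, 1.09 for Cox5b, 1.07 for Cox7c and 1.06 for Cox7b. In complex V it was 1.57 for Atp5k, 1.33 for Atp5j2, 1.28 for Atp5g2, 1.22 for Atp5g1, 0.84 for Atp5d and 0.74 for Atp5f1. Sdhb alone of the 18 passed in opposite directions in the comparisons with shGFP, with a rise of 0.69 in shSnail and a fall of 0.76 in shLoxl2.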

How the results depend on the processing

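Across the 16 alternatives for each comparison with shGFP and the 13 for shSnail against shLoxl2, no called member changed sign: 6 of 6 in shLoxl2, 24 of 24 in shSnail and 18 of 18 in shSnail against shLoxl2 kept their direction. Averaging probes, normalising between arrays, the filters and the replicate block are among these alternatives and could change no fold change. In shLoxl2 the same held for leaving out a shSnail replicate and for fitting the 4 shLoxl2 arrays alone. In shSnail it held for the fit with each dye-swapped pair as 1 value. The kept direction therefore rests on the remaining alternatives. Calls moved more. In shLoxl2 the counts of members that rose and fell were 9 and 4 when both channels had to be well above background on all 6 arrays, 10 and 2 with Cy5 arrays alone, 8 and 6 with Cy3 arrays alone, and 0 and 0 with the scanner software's log ratios (centred or not) and the authors' value table. Without background subtraction 3 fell. With the replicate block they were 9 and 3. All probes called there, 2728 in the fit reported, were 4171 with the replicate block, 774 with scanner ratios (856 centred) and 0 with the values of the authors. They were 7624 with Cy5 and 6705 with Cy3 arrays alone. Leaving out 1 replicate gave 1 to 5 members that rose, 1 that fell, and from 1733 to 2789 probes called.

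In shSnail the scanner ratios gave 11 members that rose, with the median of all probes at -0.28 before centring, and 19 after centring on each array's median. The authors' values gave 0 that rose, 0 that fell and 0 probes, and no dye correction gave 2 that fell and 6195 probes, against 2981. The median of the members, 0.79, was 1.02 with centred scanner ratios, 0.86 under the stricter filter, 0.64 with the value table, and from 0.61 to 0.80 without 1 replicate. Leaving out 1 replicate gave 0 to 27 that rose, 0 to 1 that fell, and 2 to 5838 probes called. The low end came without either shSnail replicate, where the lone shSnail array was assumed to vary like the shLoxl2 arrays.

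In shSnail against shLoxl2 the median, 0.61, was 0.67 without background subtraction, 0.72 with scanner ratios, 0.90 centred, 0.70 under the stricter filter, 0.69 with the value table, and from 0.45 to 0.77 without 1 replicate. Scanner ratios gave 7 higher and 2 lower (10 and 2 centred), and the authors' values gave 0 higher and 0 probes called, against 2516. Leaving out 1 replicate gave 0 to 25 higher, 0 to 1 lower and 39 to 4283 probes called.

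Values that reversed, of genes that did not pass in the fit reported, were Cox8b in shSnail with no dye correction (-0.45) and Cox6b2 in shSnail against shLoxl2 with scanner ratios (-1.83, centred -1.65), both dim probes; the cause was not tested. The replicate block changed 3 calls upward and 1 downward in shSnail, giving 25 that rose and 1 that fell, and 1 each way in shSnail against shLoxl2, giving 18 and 0. The replicate numbers share only a number: with 2 pairs, the deviations of same-numbered shSnail and shLoxl2 Cy5 arrays correlated at 0.208. Leaving out the filter on dim probes changed no count of members that rose or fell. Averaging probes could change none, since each gene had 1 probe. Neither could the normalisation between arrays, which evened brightness and left the ratios as they were. The dye settings for the other gene lists were added after seeing the data. The centred ratios and the fit with each dye-swapped pair as 1 value (24 that rose in shSnail) were chosen after seeing the data. Dim Cy3 spots limit the restricted isoforms.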
